A study of Mus musculus with 25 samples.

Results

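The transcriptomes of 6 pools of cloned mouse embryos that received a G9a inhibitor (G9ai) together with trichostatin A (TSA) were compared with those of 2 pools that received TSA alone, 8 of the 25 libraries of the series. The members were the 2 SCNT-LT libraries (TSA) and the 2 libraries each of SCNT-LTG-R701, SCNT-LTG-A366 and SCNT-LTG-UNC0638 (TSA with RK-701, A366 or UNC0638), chosen by their labels. All embryos of these 4 groups were made by somatic cell nuclear transfer (SCNT), in which the nucleus of a cumulus cell of a BDF1 female was placed in an enucleated BDF1 oocyte. All were held in latrunculin A, which blocks actin assembly and stood in for cytochalasin B, and all received 25 nM TSA for 8 h. The co-treated embryos also received 1 µM of 1 inhibitor for 24 h from the start of activation, so that the compounds were compared at a matched dose and time. Each library was made from polyadenylated RNA of a pool of 5 or 10 two-cell embryos collected at 28 to 29 h, and p-values below measure the spread between such pools. In pooled embryos, fewer cells that use a gene and less RNA per cell cannot be told apart. Levels in 4 libraries of embryos made by in vitro fertilization (IVF), from B6N females and DBA/2 males, are given for scale. These embryos were of both sexes, had no labelled latrunculin A or TSA, and were timed from insemination. They are thus no matched control of the cloned embryos.

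G9a, encoded by Ehmt2, works with its partner GLP, encoded by Ehmt1, to place monomethyl and dimethyl groups on lysine 9 of histone H3, marks that go with silent chromatin. TSA blocks histone deacetylases and so leaves more acetyl groups on chromatin. In the mouse, the embryo's own genome is first strongly transcribed at the two-cell stage, and cloned embryos are known for failing to switch on part of the genes that fertilized embryos use then.

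Reads assigned to genes ranged from 10932362 to 14310577 in the TSA libraries and from 13992805 to 15602397 in the co-treated libraries, with 21594 to 22506 and 21635 to 22265 genes detected. After sex chromosomes and genes averaging under 1 read were set aside, 25794 genes were tested with edgeR's quasi-likelihood test, and a gene was called when its Benjamini-Hochberg adjusted p was below 0.05 and its fold change above 2. Levels are CPM, read counts scaled to library size with TMM factors, and fold changes are on the log2 scale with their standard error (SE). The TSA libraries stood apart from each other. TSA replicate 1 lay at a mean distance of 116.6 from the co-treated libraries, in log2(CPM + 1) over all genes tested, and TSA replicate 2 at 92.2. The distance between the TSA libraries was 88.6. Summed over 24 two-cell genes, the level was 1567 CPM in TSA replicate 1 and 2969 CPM in TSA replicate 2, so the numbers of genes called against TSA are also given with 1 of these libraries left out. The labelled stage was visible in all 8 libraries, with the homeobox gene Obox6 at 426 CPM or more in each. Markers of the donor cumulus cells were low and summed over 19 genes to 94.6 and 114 CPM with TSA and to 53.9 to 72.1 CPM with co-treatment. In the pooled comparison none of the 19 was called, 1 was called lower with RK-701, and Cyp11a1 and Fshr were at 0 in both TSA libraries. Mitochondrial genes took 7.12 and 5.29% of reads with TSA and 3.57 to 4.36% with co-treatment, and the TMM factors were 1.05 to 1.10 and 0.90 to 0.95. Neither overlapped between the groups, and the part of these differences and of the cumulus traces in the results was not tested.

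RNA of the targets was not called. Ehmt2 was at 38.3 and 35.3 CPM with TSA and at 23.0 to 28.9 CPM with co-treatment, a log2 difference of -0.47 ± 0.19 (SE, adjusted p = 0.127 by edgeR). The 6 co-treated libraries lay below both TSA libraries for Ehmt2, as they did in 10.6% of all genes tested. Ehmt1 was at 120 and 91.4 CPM with TSA and at 82.4 to 105 CPM with co-treatment, a log2 difference of -0.21 ± 0.19 (adjusted p = 0.538 by edgeR). These compounds act on the enzyme and not on its RNA, so the transcript does not report on inhibition.

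Added to TSA, the G9a inhibitors raised Zfp977, Haus3, Rpp38, Obox3 and Zscan4a with every compound and lowered Malat1. With UNC0638 the Malat1 log2 difference of -0.99 fell just short of the fold threshold. With each compound given the same weight, 1213 genes (4.70%) were called, 650 higher (2.52%) and 563 lower (2.18%). The count rested on the TSA libraries: without TSA replicate 1 only 49 genes were called, 32 higher and 17 lower, and without TSA replicate 2 there were 1849, 1140 higher and 709 lower. Of those 49, 48 were also called with both TSA libraries. Sizes and directions moved less than calls, but the 650 and 563 genes were chosen with both TSA libraries. The refit kept TSA replicate 2 and the same co-treated libraries, so a kept sign is no independent test. Without TSA replicate 1 the median log2 difference of the higher genes was 1.05, against 1.27 with both. That of the lower genes was -1.27, against -1.64. Without TSA replicate 1, all 650 higher genes kept their sign and 363 (55.8%) were still more than 2-fold higher, and of the 563 lower genes 545 kept their sign and 356 (63.2%) were still more than 2-fold lower. Taken one compound at a time, RK-701 gave 801 calls (3.11%), 595 higher (2.31%) and 206 lower (0.799%). A366 gave 495 (1.92%), 371 higher (1.44%) and 124 lower (0.481%). UNC0638 gave 1282 (4.97%), 873 higher (3.38%) and 409 lower (1.59%). Without TSA replicate 1, these fell to 8, 18 and 156.

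**Figure D1:**
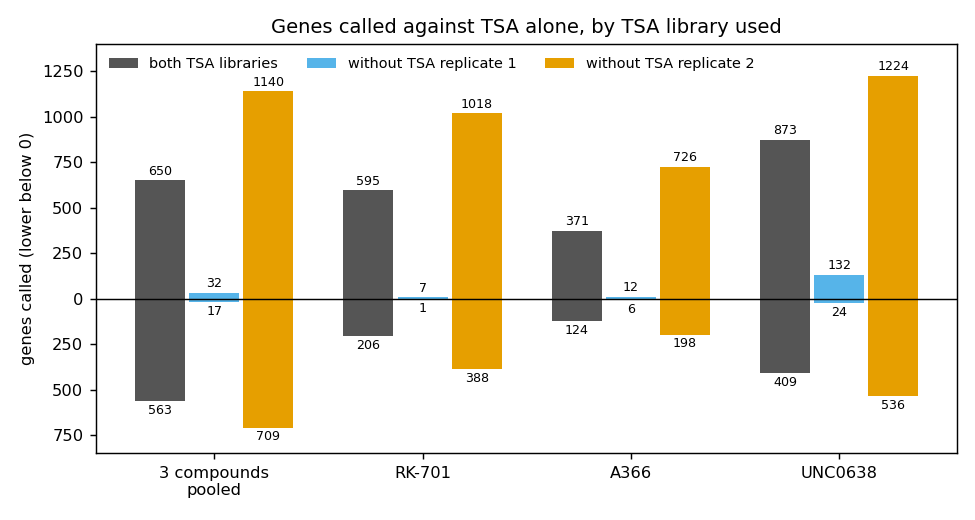
Genes called against TSA alone (vertical axis; higher above 0, lower below 0) for the 3 compounds pooled and for each compound, with both TSA libraries, without TSA replicate 1 and without TSA replicate 2. With both libraries 650 genes were higher and 563 lower in the pooled comparison, and without TSA replicate 1 the bars shrank to 32 and 17.

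Zfp977, a zinc finger gene at chr7:42579783-42592547 (mm10), had the smallest p of the pooled comparison. It was at 22.1 CPM in both TSA libraries, at 141 and 163 CPM with RK-701, at 172 and 148 CPM with A366 and at 197 and 119 CPM with UNC0638. Each compound thus took it to a level above both TSA libraries, and above the 67.2 to 110 CPM of IVF embryos. Its pooled log2 difference was 2.82 ± 0.27 (SE, adjusted p = 1.26e-06 by edgeR), and 2.82 (adjusted p = 0.000555) without TSA replicate 1.

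Haus3, at chr5:34153880-34169527, encodes a subunit of the augmin complex, which seeds microtubules within the spindle. Its levels were 127 and 225 CPM with TSA, 536 and 574 CPM with RK-701, 577 and 538 CPM with A366, and 628 and 511 CPM with UNC0638. All 6 co-treated libraries fell in or just above the 464 to 600 CPM of IVF embryos, and the pooled log2 difference was 1.67 ± 0.22 (SE, adjusted p = 1e-04 by edgeR). Rpp38, a protein subunit of RNase P, which trims tRNA precursors, was at 29.1 and 48.6 CPM with TSA and at 132, 128, 144, 117, 176 and 127 CPM in the co-treated libraries, in the order RK-701, A366, UNC0638 with replicate 1 first. That order is kept below. The Rpp38 difference was 1.82 ± 0.24 (SE, adjusted p = 8.85e-05 by edgeR). Gskip, which binds the kinases GSK3 and PKA, was at 33.6 and 50.4 CPM with TSA and at 119, 148, 129, 104, 122 and 140 CPM with co-treatment. Cstf2t, a testis and germline form of a 3′ end processing factor, rose from 250 and 305 CPM to 834, 1099, 959, 879, 689 and 691 CPM, above the 600 to 724 CPM of IVF embryos in the 4 libraries of RK-701 and A366. BC024063 rose from 11.5 and 15.9 CPM to between 41.5 and 70.0 CPM. In none of these genes did the co-treated libraries overlap the TSA libraries, which the naming rule required of all but Cstf2t, and of Zfp977. Over all genes tested, the 6 co-treated libraries lay above both TSA libraries in 2775 (10.8%) and below both in 2731 (10.6%). Haus3, Rpp38, Gskip, Cstf2t and BC024063 were still called without TSA replicate 1.

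**Figure D2:**
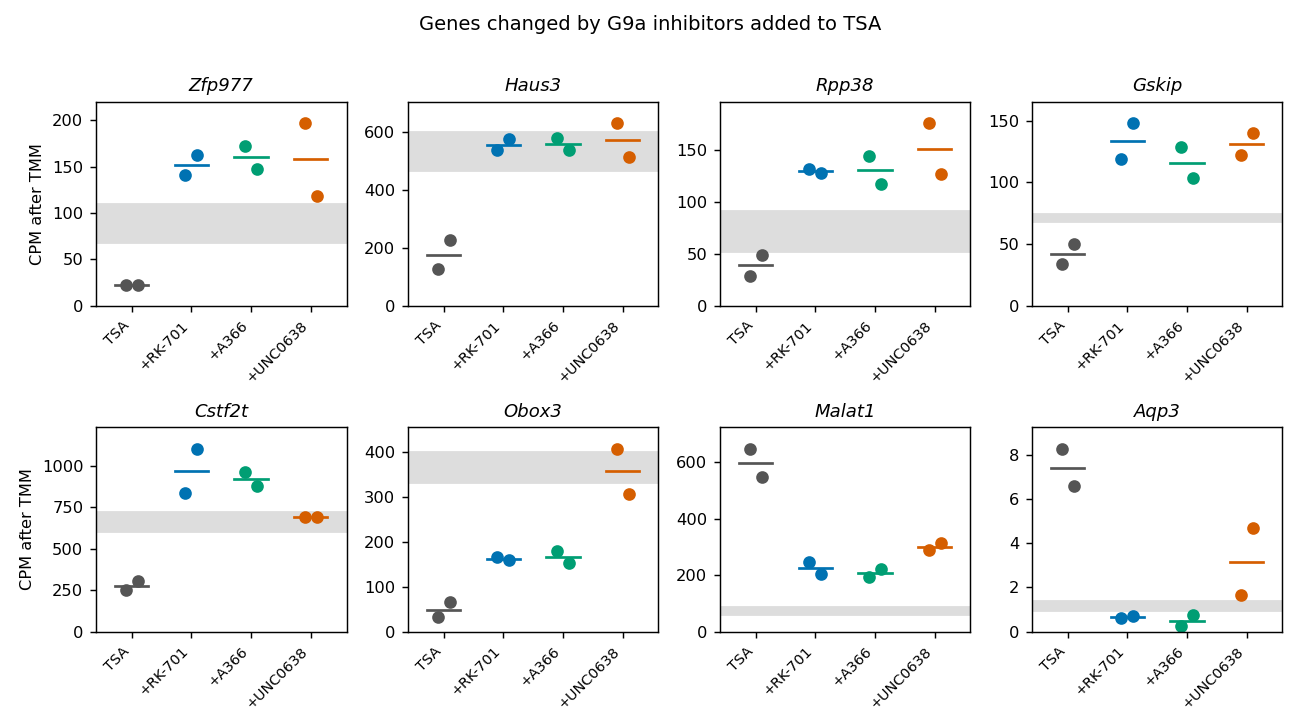
Levels in CPM after TMM scaling (vertical axis, linear from 0) of 8 genes in the TSA libraries and with each compound added; each point is 1 library, the short line is the group's mean, and the grey band spans the IVF libraries. Zfp977, Haus3, Rpp38, Gskip, Cstf2t and Obox3 lie above both TSA libraries in all 6 co-treated libraries, and Malat1 and Aqp3 lie below them.

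The promoter of Zfp977 is printed because the gene rose with every compound, and those of Usp17lc, Usp17ld, Zscan4d and Zscan4f because the level of these gene copies was highest with UNC0638, as described further on. Each is 300 bases of RefSeq sequence on the gene's own strand, 250 before and 50 after its start (GRCm38.p6), with any TATAAA on either strand in capitals. Of 32851 such promoters, 4473 (13.6%) held TATAAA. All 4 two-cell gene copies held it once and Zfp977 did not. The copies are near-identical, with 269 of 278 bases shared between Usp17lc and Usp17ld (96.8%) and 259 of 266 between Zscan4d and Zscan4f (97.4%) at the best ungapped offset. These promoters were picked for printing, and how many two-cell genes hold TATAAA was not counted. Only 11 of the 24 listed two-cell genes had such a promoter. A match is a description of the letters and not of a site in use.
Zfp977, chr7:42592496-42592795, minus strand: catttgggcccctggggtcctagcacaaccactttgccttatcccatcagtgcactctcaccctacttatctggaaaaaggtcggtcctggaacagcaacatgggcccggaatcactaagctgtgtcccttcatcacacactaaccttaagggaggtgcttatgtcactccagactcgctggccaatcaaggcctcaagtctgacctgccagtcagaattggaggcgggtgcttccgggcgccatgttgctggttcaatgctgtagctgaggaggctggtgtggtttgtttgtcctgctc
Usp17lc, chr7:103416446-103416745, plus strand: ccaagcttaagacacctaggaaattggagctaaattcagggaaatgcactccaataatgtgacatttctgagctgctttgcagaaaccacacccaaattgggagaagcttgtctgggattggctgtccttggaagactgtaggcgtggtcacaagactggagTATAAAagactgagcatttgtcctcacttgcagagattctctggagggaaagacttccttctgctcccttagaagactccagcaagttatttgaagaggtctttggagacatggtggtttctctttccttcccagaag
Usp17ld, chr7:103252456-103252755, minus strand: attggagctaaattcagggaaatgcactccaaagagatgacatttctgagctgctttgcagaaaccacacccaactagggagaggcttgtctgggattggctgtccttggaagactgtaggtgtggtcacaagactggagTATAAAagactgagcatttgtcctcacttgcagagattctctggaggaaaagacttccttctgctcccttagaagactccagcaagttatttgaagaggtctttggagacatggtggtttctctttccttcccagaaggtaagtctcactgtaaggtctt
Zscan4d, chr7:11166099-11166398, minus strand: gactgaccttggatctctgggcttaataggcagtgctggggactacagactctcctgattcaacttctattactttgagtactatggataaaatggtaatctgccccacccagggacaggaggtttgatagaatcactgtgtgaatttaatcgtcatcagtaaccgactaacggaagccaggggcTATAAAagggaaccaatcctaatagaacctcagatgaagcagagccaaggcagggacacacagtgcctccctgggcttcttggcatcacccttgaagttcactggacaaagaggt
Zscan4f, chr7:11397665-11397964, plus strand: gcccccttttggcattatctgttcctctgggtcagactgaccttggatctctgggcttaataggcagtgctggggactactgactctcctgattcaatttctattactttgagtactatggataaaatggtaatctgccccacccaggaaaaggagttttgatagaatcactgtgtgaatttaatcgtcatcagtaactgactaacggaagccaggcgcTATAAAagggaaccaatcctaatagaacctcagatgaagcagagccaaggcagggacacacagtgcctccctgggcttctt

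Among the Obox genes, homeobox factors that act when the embryonic genome is switched on, 3 of 8 rose in the pooled comparison (2.52% of all genes did) and none fell, and the median log2 difference was 0.80 against -0.09 over all genes tested. Obox3, at chr7:15479825-15639902, was at 31.9 and 65.3 CPM with TSA and at 166, 159, 180, 153, 405 and 307 CPM with co-treatment, a log2 difference of 2.13 ± 0.25 (SE, adjusted p = 4.38e-05 by edgeR). The UNC0638 libraries lay nearest to the 331 to 400 CPM of IVF embryos. Obox6 rose from 426 and 745 CPM to between 1264 and 1584 CPM (log2 difference 1.26 ± 0.22) and Obox8 from 135 and 249 CPM to between 420 and 657 CPM (1.54 ± 0.24), with all 6 co-treated libraries above both TSA libraries. Obox5 and Obox7 were not called, with log2 differences of 0.00 and -0.31, and Crxos, at 0.83, rose by less than 2-fold. Without TSA replicate 1, Obox3 was still called at a log2 difference of 1.70, whereas Obox6 (0.91) and Obox8 (1.17) were not.

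Of the Zscan4 genes, which are switched on in the late two-cell embryo and protect telomeres, 4 of 6 rose in the pooled comparison (2.52% of all genes did), and 1, Zscan4a, was called without TSA replicate 1. Zscan4a was at 3.72 and 7.04 CPM with TSA and at 27.0, 29.2, 28.3, 31.1, 62.1 and 42.6 CPM with co-treatment, a log2 difference of 2.69 ± 0.31 (SE, adjusted p = 4.38e-05 by edgeR). Every co-treated library stayed below the 114 to 190 CPM of IVF embryos. Zscan4d rose from 5.30 and 17.4 CPM to 25.1, 52.6, 30.7, 30.1, 153 and 93.5 CPM. Summed over the 6 genes, the level was 12.3 and 32.8 CPM with TSA, 62.2 and 107 with RK-701, 67.8 and 71.2 with A366, and 309 and 174 with UNC0638. All 6 members were called with UNC0638 (3.38% of all genes were), 2 with RK-701 (2.31%) and 1 with A366 (1.44%). These counts were 2, 0 and 1 without TSA replicate 1, and Zscan4c and Zscan4d had pooled log2 differences of 1.37 and 1.59 without a call. Zscan4b and Zscan4e were at 0 in both TSA libraries and at or below 2.42 CPM in the co-treated libraries, and the median log2 difference was 2.44 as fitted and 2.00 with such genes at the bound that a floor of 3 reads per library gives. These copies share most of their sequence and only uniquely placed reads were counted, so levels of single copies are uncertain.

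Other genes with large differences were low with TSA. Pip5k1b, a kinase that makes the lipid PI(4,5)P2, rose from 2.60 and 8.85 CPM to 43.1, 71.2, 58.8, 46.2, 32.6 and 26.6 CPM (log2 difference 2.94 ± 0.52), and the zinc finger gene Zfp825 from 3.44 and 3.48 CPM to between 11.9 and 40.8 CPM (2.92 ± 0.49). Both were no longer called without TSA replicate 1, at adjusted p = 0.109 and 0.0627 by edgeR, with log2 differences of 2.33 and 2.91. Vmn1r209, a pheromone receptor gene, was at 0 and 0.363 CPM with TSA and at 2.42 to 6.76 CPM with co-treatment. Ajap1, a junction protein gene, was at 0.465 and 0.218 CPM with TSA and at 1.10, 3.68, 2.59, 3.64, 16.1 and 16.8 CPM with co-treatment. The compounds differed in it, with UNC0638 higher than RK-701 by 2.76 ± 0.57 (adjusted p = 0.0198 by edgeR) and than A366 by 2.40 ± 0.56 (adjusted p = 0.0414), and the call against A366 was lost with any 1 of the 4 libraries left out, at 2.17 to 2.66, and that against RK-701 without RK-701 replicate 1 or either UNC0638 library, at 2.16 to 2.79. Without TSA replicate 1, neither Vmn1r209 (3.48) nor Ajap1 (4.46) was called against TSA.

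Of 53 germline genes, 5 rose and none fell, which is 9.43% against 2.52% of all genes. Besides Cstf2t these were Terb2, needed for telomere attachment in meiosis, which went from 45.8 and 74.0 CPM to between 114 and 159 CPM (1.13 ± 0.21), Hormad1, a meiotic chromosome axis protein (1.08 ± 0.31), Zcwpw1, a reader of the marks at meiotic recombination sites (1.08 ± 0.30), and Syce3, a synaptonemal complex protein (3.39 ± 1.03), which did not exceed 3.22 CPM in any library of these groups. Without TSA replicate 1, Cstf2t was still called, whereas Terb2 (0.83), Hormad1 (0.85), Zcwpw1 (0.69) and Syce3 (3.55) were not.

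The lists that follow hold few genes, and 4.70% of all genes were called, 2.52% higher and 2.18% lower. Their counts of 0 to 3 are too small to set against these shares. The lists are given for the pooled comparison. None of 17 H3K9 methylation writers and partners and none of 11 DNA methylation genes was called. Of 11 H3K9 demethylase genes only Kdm4b was called, lower by 1.29 ± 0.37 on the log2 scale. Of 13 deacetylase genes Hdac1 rose from 153 and 220 CPM to between 293 and 504 CPM (1.01 ± 0.24), while Hdac5 fell from 3.53 and 3.85 CPM to between 0.537 and 1.96 CPM. None of 17 p53 target genes, 13 heat shock genes or 26 maternal oocyte genes was called, although 2 p53 targets were lower and 1 oocyte gene higher with UNC0638, 1 heat shock gene was lower with RK-701, and 1 DNA methylation gene was higher and 1 lower with UNC0638. Of 28 nucleolar genes only Nifk rose (1.19 ± 0.23), and of 26 early lineage genes only Sall4 rose (1.01 ± 0.25), a zinc finger factor of pluripotent cells. Among 29 imprinted genes, the ubiquitin ligase gene Ube3a rose from 110 and 101 CPM to between 171 and 262 CPM and Mcts2 rose by 1.09 ± 0.19, while the antisense RNA Kcnq1ot1 fell from 136 and 106 CPM to between 38.7 and 72.5 CPM. The counting took no account of strand, so reads of Kcnq1ot1 and its host gene cannot be told apart. None of 9 genes imprinted through H3K27 methylation was called. Of the genes called in these lists, Ube3a was still called without TSA replicate 1, while Kdm4b, Hdac1, Hdac5, Nifk, Sall4, Mcts2 and Kcnq1ot1 were not, with log2 differences between -1.66 and 0.93.

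The study defined 879 reprogramming-resistant genes as genes that rise from the one-cell to the two-cell stage after fertilization and stay low in control SCNT embryos. Its IVF and control SCNT libraries are of this series, so the list is not independent evidence of a direction. Of these, 176 rose and 10 fell with co-treatment, 20.0% against 2.52% of all genes, and the median log2 difference was 0.74 (0.66 with 86 genes near 0 at their bound). Summed over the list, levels were 26669 and 35797 CPM with TSA and 54817 to 67471 CPM with co-treatment, without overlap. With single compounds, RK-701 raised 122 (2.31% of all genes rose), A366 100 (1.44%) and UNC0638 228 (3.38%). Without TSA replicate 1, 15 of the 879 were called higher in the pooled comparison, and those raised by RK-701, A366 and UNC0638 numbered 1, 5 and 68.

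Of the lower genes with the smallest p, Malat1, a nuclear noncoding RNA at chr19:5795690-5802672, went from 647 and 547 CPM to 246, 203, 193, 222, 289 and 313 CPM, a log2 difference of -1.31 ± 0.16 (SE, adjusted p = 7.16e-05 by edgeR). It was below both TSA libraries with every compound and stayed above the 58.1 to 86.3 CPM of IVF embryos. With UNC0638 taken by itself, Malat1 missed only the fold threshold, at -0.99 (adjusted p = 0.00576 by edgeR). It was not called different between UNC0638 and the other compounds. Aqp3, a water and glycerol channel, went from 8.27 and 6.60 CPM to 0.595, 0.690, 0.236, 0.743, 1.64 and 4.68 CPM (log2 difference -2.87 ± 0.40), with UNC0638 replicate 2 well above the other co-treated libraries. Dhcr7, which makes cholesterol in its last step, went from 82.6 and 63.9 CPM to between 27.0 and 34.8 CPM (-1.25 ± 0.17), and Aacs, which activates acetoacetate for lipid synthesis, from 35.6 and 33.7 CPM to between 8.72 and 19.5 CPM (-1.47 ± 0.20). These 4 genes were still called without TSA replicate 1. The translation factor gene Eif4g1 went from 282 and 196 CPM to between 83.2 and 122 CPM (-1.23 ± 0.17) and was not called without that library, at -0.94. CT010467.1, annotated as ribosomal RNA, went from 1928 and 1007 CPM to between 256 and 606 CPM (-1.78 ± 0.27) and was likewise not called, at -1.24. Of the 563 lower genes, 74 were at or under the floor of 3 reads in every co-treated library, and the median log2 difference was -1.64 as fitted and -1.52 with those at their bound. The calcium-permeable channel gene Piezo1 was at 3.53 and 1.38 CPM with TSA and at 0.785 CPM or less with co-treatment, with both UNC0638 libraries at 0. Its pooled log2 difference was -4.26 (adjusted p = 0.0069 by edgeR), a value that depends on the prior count through UNC0638. With RK-701 (-2.60) and A366 (-2.26) Piezo1 was not called. The transporter gene Slc5a8 was at least 4.21-fold lower. Neither Piezo1 nor Slc5a8 was called without TSA replicate 1 or by DESeq2.

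Set against IVF embryos, 337 of the 650 higher genes were called lower than IVF with TSA alone (7.22% of all genes) and 53 with co-treatment (10.1%). Co-treatment left 86 of the 650 above IVF (6.27% of all genes), against 8 with TSA alone (7.68%). Of the 563 lower genes, 245 were called above IVF with TSA alone and 50 with co-treatment, while 128 were below IVF with co-treatment and 6 with TSA alone. The genes were chosen by the comparison with the same TSA libraries, so these counts describe where they ended and are no test.

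The 3 compounds were then compared with one another. Their comparisons with TSA share the TSA libraries, so the overlap of their calls describes these libraries and carries no test. The 650 and 563 genes were chosen by the mean of the same 3 compounds, so a shared sign and similar sizes largely follow from that choice. The 650 higher genes were higher with each compound, 378 of them by more than 2-fold with each, and 202 (0.783% of all genes tested) were called with all 3. The median log2 difference of the 650 genes was 1.31 for RK-701, 1.19 for A366 and 1.35 for UNC0638, and the median distance between the highest and the lowest compound was 0.43. Among the 563 lower genes, 562 were lower with each compound, 359 by more than 2-fold with each, and 23 (0.0892%) were called with all 3. Of the 650 higher genes 41 were called with no single compound, and of the 563 lower genes 266. The count of 202 is set by the TSA libraries, at 2 without TSA replicate 1 and 519 without TSA replicate 2.

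Direct comparisons leave the TSA levels out, although the TSA libraries still enter the shared estimate of the spread. Each p was adjusted over all genes and the 3 pairs together, and the difference was called in 276 genes (1.07%) in any pair. A366 and RK-701 differed in 3 genes (0.0116%), 2 higher (0.00775%) and 1 lower (0.00388%) with A366, with 1000 genes at an unadjusted p under 0.05, and DESeq2 called 17. UNC0638 differed from RK-701 in 198 genes (0.768%), 144 higher (0.558%) and 54 lower (0.209%), and from A366 in 194 genes (0.752%), 171 higher (0.663%) and 23 lower (0.0892%). With any 1 library of the pair left out, these fell to 39 to 87 and 32 to 77. Distances between libraries had the same order, at 68.8 to 75.2 between RK-701 and A366 libraries, 84.5 to 98.7 between RK-701 and UNC0638 and 85.9 to 92.6 between A366 and UNC0638, beside 68.3 to 78.6 between replicates of a compound. The TSA replicates lay 88.6 apart, so the UNC0638 distances were not beyond those of replicates in every group. A missed threshold does not show that RK-701 and A366 act alike. The 95% interval of their difference lay within 2-fold in either direction for 7056 of 25794 genes (27.4%) and for 508 of the 1213 genes called in the pooled comparison (41.9%). For UNC0638 against RK-701 it did so for 370 of the 1213 (30.5%) and against A366 for 436 (35.9%).

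Of the 3 genes that separated A366 from RK-701, 2 were low in level, and the count ranged from 0 to 5 when 1 library was left out. Plxdc2, a membrane receptor gene, was at 0.340 and 0.307 CPM with RK-701 and at 4.32 and 4.16 CPM with A366, a log2 difference of 3.67 (95% interval 2.11 to 5.24, adjusted p = 0.0198 by edgeR). Kif13b, a kinesin motor gene, was at 18.9 and 19.4 CPM with RK-701 and at 7.70 and 7.06 CPM with A366 (log2 difference -1.38 ± 0.31, adjusted p = 0.0345). The gene model Gm10722 was at 3.82 and 5.68 CPM with RK-701 and at 6.75 and 51.4 CPM with A366, so that A366 replicate 2 stood far above the other 3 libraries. The Plxdc2 and Kif13b calls were lost with any 1 of the 4 libraries left out, at 3.60 to 3.74 and at -1.32 to -1.44.

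Genes of the two-cell stage were among those in which UNC0638 stood apart. In a list of 24 such genes outside the Zscan4 and Obox families, 19 rose with UNC0638 against TSA (3.38% of all genes did), 2 with RK-701 (2.31%) and 1 with A366 (1.44%), and the median log2 differences were 1.81, 0.38 and 0.06. Against RK-701 and TSA, 13 of the 24 were higher with UNC0638 and TSA, and against A366 and TSA 14 were, with none lower in either. Both UNC0638 libraries lay above the 4 other co-treated libraries in 22 of the 24 (91.7%), against 13.0% of all genes tested, and below them in none. The summed level was 3762 and 3711 CPM with RK-701, 3415 and 2713 with A366, and 7871 and 7070 with UNC0638. Leaving out 1 library at a time, the 19 ranged from 8 (without TSA replicate 1) to 21, the 13 from 5 (without RK-701 replicate 1) to 8 and the 14 from 3 (without A366 replicate 2) to 10.

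Zfp352, a zinc finger gene at chr4:90218820-90225702 that marks the two-cell stage, was at 115 and 248 CPM with TSA, at 180 and 177 CPM with RK-701, at 169 and 153 CPM with A366 and at 549 and 588 CPM with UNC0638. RK-701 and A366 left it between the TSA libraries, and UNC0638 took it above the 299 to 372 CPM of IVF embryos. UNC0638 was higher than RK-701 by 1.67 ± 0.26 on the log2 scale (adjusted p = 0.00114 by edgeR) and than A366 by 1.82 ± 0.26 (adjusted p = 0.000593). Usp17lc, 1 of a family of deubiquitinase genes, at chr7:103415072-103419880, was at 50.2 and 81.5 CPM with TSA and at 28.8, 45.3, 46.3, 47.2, 196 and 234 CPM with co-treatment. It was thus below both TSA libraries with RK-701 and A366 and above both with UNC0638, and the log2 difference from RK-701 was 2.53 ± 0.32 (adjusted p = 0.000256) and from A366 2.20 ± 0.32 (adjusted p = 0.000632). Usp17ld, with the near-identical promoter printed above, was at 6.88 and 17.3 CPM with TSA and at 4.93, 4.53, 8.01, 3.64, 35.5 and 37.1 CPM with co-treatment. Usp17lb behaved otherwise, with 202 and 616 CPM with TSA and 1417, 1381, 1109, 820, 2473 and 1796 CPM with co-treatment. All 6 of these values lay above TSA, and the difference between UNC0638 and RK-701 was 0.61 (95% interval -0.32 to 1.54, adjusted p = 0.768 by edgeR).

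Tcstv3, which marks the two-cell stage and lengthens telomeres, was at 58.5 and 113 CPM with TSA and at 78.6, 72.3, 101, 68.1, 285 and 333 CPM with co-treatment, 2.03 ± 0.30 higher with UNC0638 than with RK-701 on the log2 scale (adjusted p = 0.00101 by edgeR). The related models Gm21818 and Gm21731, which the same region of chromosome 13 carries, were at 233 and 278 CPM and at 285 and 270 CPM with UNC0638, against 45.6 to 88.9 CPM and 82.6 to 98.0 CPM with the other compounds. A group of gene models on chromosome 12 moved with them. Gm5662, at chr12:88270640-88274500, was at 77.9 and 191 CPM with TSA and at 186, 187, 148, 91.5, 824 and 925 CPM with co-treatment, higher with UNC0638 than with RK-701 by 2.23 ± 0.42 (adjusted p = 0.0104) and than with A366 by 2.87 ± 0.44 (adjusted p = 0.0011). Gm2016, Gm2022, Gm2075, Gm8300, Gm5788 and Gm5039 of the same chromosome differed in the same direction, by 1.68 to 3.55 from A366 and by 1.13 to 2.68 from RK-701. With 1 library left out, the call against RK-701 was lost in 4 of 4 cases for Gm2016, 3 of 4 for Gm2022 and Gm5788, and 2 of 4 for Gm2075 and Gm8300, and the call against A366 in 3 of 4 for Gm2016 and Gm2022 and 1 of 4 for Gm2075, with values of 1.03 to 3.13 in these cases. These models, like the Usp17 and Tcstv genes, are copies of one another, and counts of single copies are uncertain. Zscan4f, with 2.29, 2.99, 2.83, 3.79, 24.6 and 8.56 CPM in the co-treated libraries, was higher with UNC0638 than with RK-701 by 2.64 (adjusted p = 0.0224). Zscan4d was higher than with A366 by 2.02 (adjusted p = 0.0228) and than with RK-701 by 1.66 (adjusted p = 0.0725), the last not called. The Zscan4d and Zscan4f calls between compounds were lost without UNC0638 replicate 1, at 1.62 for Zscan4d against A366 and 1.69 for Zscan4f against RK-701, and also without either library of the other compound, at 2.00 to 2.03 and 2.46 to 2.85. The Gm5662 call against A366 was lost without A366 replicate 2, at 2.56, and that against RK-701 without either RK-701 library or UNC0638 replicate 2, at 2.14 to 2.23. The Tcstv3 call against RK-701 was kept with any 1 library left out.

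**Figure D3:**
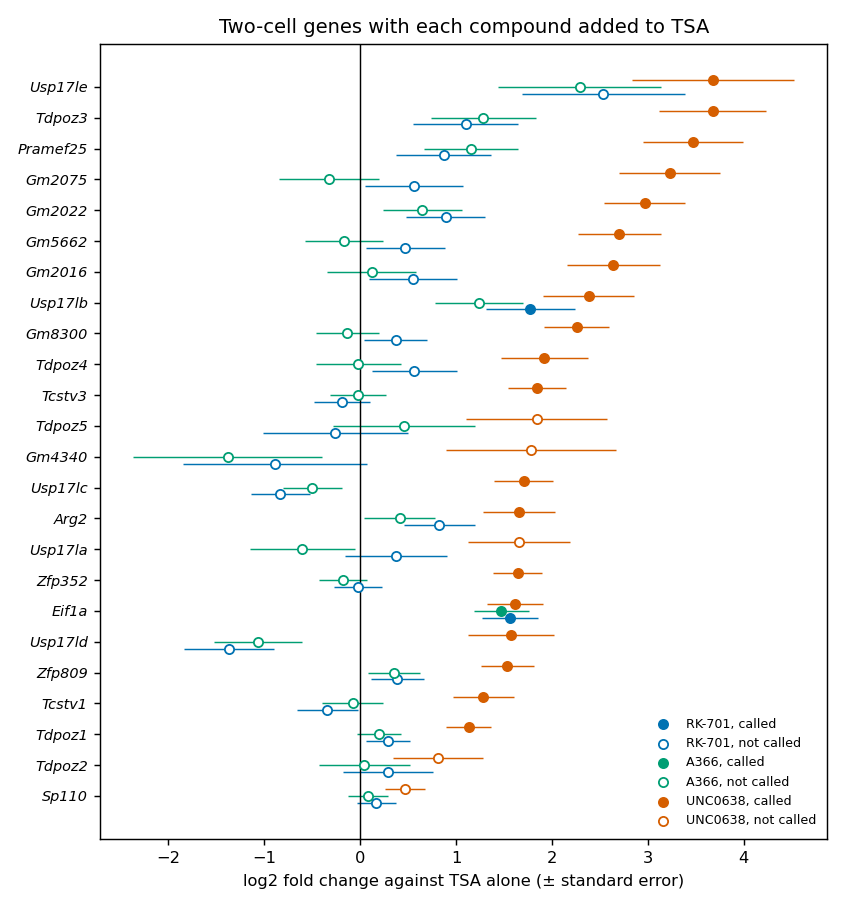
Log2 difference from TSA alone (horizontal axis, ± SE) of the 24 two-cell genes with RK-701, A366 and UNC0638; filled points were called. Of the 24 genes 19 were called with UNC0638, 2 with RK-701 and 1 with A366, and Eif1a and Usp17lb are the members whose calls were shared with another compound.

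Over all genes, 103 (0.399%) were called higher with UNC0638 than with both other compounds, and 16 (0.0620%) lower. Of the 103, 92 were also called higher with UNC0638 than with TSA, 5 with RK-701 and 2 with A366. With 1 library left out at a time, the 103 ranged from 20 (without A366 replicate 2) to 114 (without TSA replicate 1, through the shared estimate of the spread). The list of 24 two-cell genes held 13 of the 103, and the reprogramming-resistant genes held 42.

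Genes outside the two-cell lists also set UNC0638 apart. Ddit3, a transcription factor of the stress response to unfolded proteins (CHOP), at chr10:127290774-127296288, was at 7.15 and 7.55 CPM with TSA, at 6.71 and 6.83 CPM with RK-701, at 5.58 and 6.61 CPM with A366 and at 35.3 and 52.2 CPM with UNC0638. The UNC0638 libraries lay far above the other 6, with a log2 difference of 2.84 against A366 (95% interval 2.08 to 3.60, adjusted p = 0.000256 by edgeR) and 2.69 ± 0.37 against RK-701 (adjusted p = 0.000446). In the latrunculin A control Ddit3 was at 31.2 and 13.4 CPM, and in IVF embryos at 12.7 to 16.1 CPM. RK-701 or A366 without TSA gave 14.7 to 21.6 CPM, so the other 6 libraries were themselves low. Ercc4, a nuclease subunit of DNA repair, was at 37.3 and 65.5 CPM with TSA and at 52.4, 40.0, 41.5, 34.6, 147 and 143 CPM with co-treatment, 1.65 ± 0.23 higher with UNC0638 than with RK-701 (adjusted p = 0.000593) and 1.93 ± 0.23 higher than with A366 (adjusted p = 0.000256). Gm9519 was at 4.76 to 5.83 CPM with RK-701 and A366 and at 34.2 and 31.2 CPM with UNC0638. Arg1, which splits arginine into urea and ornithine, at chr10:24915221-24927484, went the other way. It was at 28.6 and 29.1 CPM with TSA, at 71.2 and 64.3 CPM with RK-701, at 42.2 and 39.8 CPM with A366 and at 10.4 and 14.9 CPM with UNC0638. RK-701 and A366 lay above TSA and UNC0638 below it, the RK-701 libraries lay at the 64.6 to 80.8 CPM of IVF embryos, and the log2 difference of UNC0638 was -2.42 ± 0.28 from RK-701 (adjusted p = 0.000209) and -1.70 ± 0.27 from A366 (adjusted p = 0.0021). The call against A366 was lost without UNC0638 replicate 1, at -1.46.

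**Figure D4:**
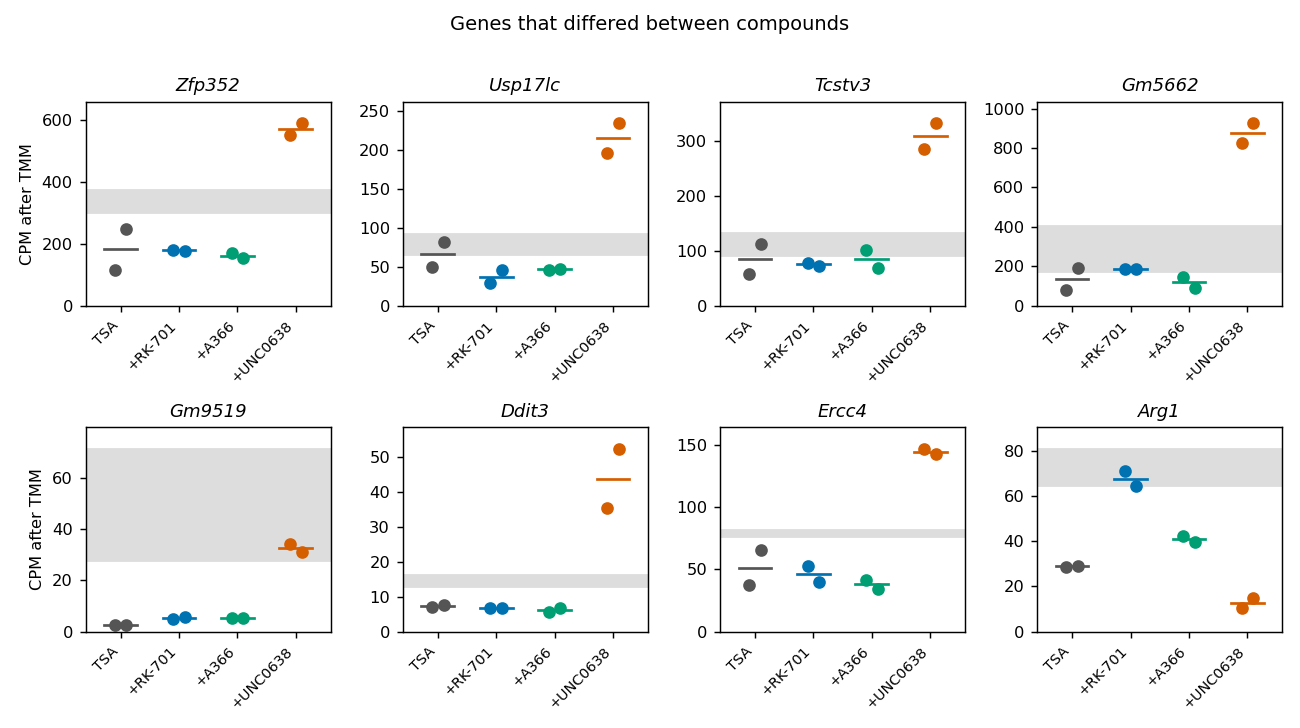
Levels in CPM after TMM scaling (vertical axis, linear from 0) of 8 genes that differed between compounds; each point is 1 library, the short line is the group's mean, and the grey band spans the IVF libraries. With UNC0638, Zfp352, Usp17lc, Tcstv3, Gm5662, Gm9519, Ddit3 and Ercc4 lie above the TSA, RK-701 and A366 libraries, and Arg1 lies below them.

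Without TSA, the mean of RK-701 and A366 gave 47 calls (0.182%) against the latrunculin A control, 29 higher (0.112%) and 18 lower (0.0698%). The series holds no library of UNC0638 without TSA. Of the 650 genes higher with co-treatment, 420 had the same sign in the mean of RK-701 and A366 without TSA (64.6%, against 46.1% of all genes tested) and 8 were called. The difference between the inhibitors' effect with TSA and their effect without it was tested as an interaction, with RK-701 and A366 averaged. It was called in 332 genes (1.29%), 251 positive (0.973%) and 81 negative (0.314%). The comparison shares the TSA libraries, and the count was 6 without TSA replicate 1. Zfp977 had an interaction of 2.7 ± 0.34 (adjusted p = 0.000208 by edgeR), Rpp38 of 2.26 ± 0.32 (adjusted p = 0.000722), Haus3 of 1.80 ± 0.30 (adjusted p = 0.00419) and Gskip of 1.27 ± 0.27 (adjusted p = 0.0195). Without TSA, with the 2 compounds averaged, their log2 differences were 0.11, -0.52, -0.14 and 0.29 in this order, and none was called. The averaged compounds did not always move alike. Zfp977 was at 42.6 and 29.6 CPM in the latrunculin A control. It was at 48.7, 77.7 and 81.1 CPM with RK-701 alone and at 27.2 and 17.2 CPM with A366 alone. With RK-701 and A366 alone, mean levels were 37.6 and 37.0 CPM for Rpp38, 212 and 161 for Haus3, and 58.4 and 57.5 for Gskip. Aqp3 had an interaction of -2.94 ± 0.64 (adjusted p = 0.02). With 1 of the 13 libraries left out, the Haus3 call was lost in 2 cases (down to 1.36), the Gskip call in 4 (down to 1.01) and the Aqp3 call in 3, among them for each the cases without TSA replicate 1 and without replicate 1 of the latrunculin A control. Of the 24 two-cell genes 1 was positive and 1 negative, and none of the Zscan4 or Obox genes was called in this test.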

How the data were processed

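RNA was sequenced from 25 pools of mouse embryos in 11 groups, and the deposited table holds whole-number read counts per gene and per library. Per the labels and the file header, the authors aligned reads to mm10 with STAR and counted uniquely placed read pairs per gene with featureCounts 1.6.2, without regard to strand, in an annotation of genes and repeats. No value was normalized before deposit. Counts were modelled here with edgeR 4.0.16 in R 4.3.3 (quasi-likelihood test, TMM scaling, 1 term for each of 11 groups, all 25 libraries, so that groups of 2 share 1 estimate of the spread). Genes on sex chromosomes or averaging under 1 read were not tested. The pooled comparison is the mean of the 3 co-treated groups minus TSA. Genes were called at an adjusted p below 0.05 and a fold above 2. Intervals and floors of 3 reads per library cover counting error or the fitted spread only. Symbols were joined from the annotation for 55134 of 55375 gene rows, and 1755056 repeat copies were left out of the tests. The model was also run on simulated counts, drawn with 1 fixed spread for all genes and no outlying library. That run cannot speak to calls that rest on the TSA libraries. DESeq2 1.42.0, other filters and scalings, a block for the replicate number and leaving out libraries or compounds were the alternatives. Same-numbered libraries did not deviate together (correlations of -0.08 to 0.04 over 6 pairs of groups), so the numbers were not taken to pair libraries.

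Genes are named by rule: in each direction of the pooled comparison, the 8 with the largest fold and 6 more with the smallest p among called genes with at least 10 reads in every library of the higher side, a symbol other than a gene model's and no overlap between groups; the members of the gene lists; up to 4 genes by p in each pair of compounds; up to 4 by fold in each direction of the interaction; and the targets. The members, lists and rules were chosen with earlier results of these data known. The lists hold two-cell, Zscan4, Obox, germline, chromatin, imprinted, maternal, stress, nucleolar, lineage and cumulus cell genes and the study's reprogramming-resistant genes. Promoter sequences come from RefSeq (GRCm38.p6).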

Additional observations from a re-analysis of the deposited data

Results flagged for a closer look

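In 8 of 50 named genes, 1 of the 6 co-treated libraries lay far from the other 5 by Dixon's criterion. Its chance rate of about 1 in 20 holds for draws from 1 normal distribution. These libraries came from different compounds, and some genes had no reads in most of them, so the count is a description and no test. UNC0638 replicate 1 was high for Zscan4c, at 66.2 CPM, and for Zcwpw1, at 124 CPM. UNC0638 replicate 2 was high for Aqp3, at 4.68 CPM, for Usp17le, at 6.21 CPM, and for Fgf15, at 0.726 CPM. A366 replicate 1 was apart for Fscb, at 0.314 CPM, and for Ccdc184, at 0.236 CPM, and RK-701 replicate 1 for Rnase4, at 0.340 CPM. Fgf15, Fscb, Ccdc184 and Rnase4 were under 1 CPM in these libraries.

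Between compounds, the tested log2 differences that passed the threshold and are among the 4 with the smallest p in a pair were, for A366 minus RK-701, 3.67 for Plxdc2, -1.38 for Kif13b and 2.61 for Gm10722. For UNC0638 minus RK-701 they were -2.42 for Arg1, 2.35 for Gm21818, 1.69 for Gm21731 and 2.62 for Gm9519. For UNC0638 minus A366 they were 2.84 for Ddit3, 1.68 for Gm5788, 3.22 for Gm5039 and 1.93 for Ercc4.

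Between the inhibitors' effect with and without TSA, the largest called log2 interactions were 9.98 for Mgst1, 8.21 for C1s1, 3.85 for Zfp986 and 3.38 for Bbs7, and -12.35 for Ankrd34c, -11.66 for Svet1, -7.74 for Chrna5 and -5.80 for Cfap206. Mgst1, C1s1, Ankrd34c, Svet1, Chrna5 and Cfap206 had libraries at 0 in the TSA or the latrunculin A control group, so their fitted values depend on the prior count and are no bound. Mgst1 was at 0 in both TSA libraries, and its co-treated level was at least 3.00-fold higher. The interaction averages RK-701 and A366, which differed without TSA in Bbs7, with means of 7.80 and 1.66 CPM, and in Zfp986, with 2.02 and 0.0834 CPM.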

How the results depend on the processing

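Under the alternatives that kept both TSA libraries, the pooled count of 1213 stayed between 875 and 1540. Leaving out 1 library at a time gave 49 to 1849 calls for the pooled comparison, 8 to 1406 for RK-701, 18 to 924 for A366, 156 to 1760 for UNC0638, 0 to 5 for A366 against RK-701, 39 to 87 for UNC0638 against RK-701, 32 to 77 for UNC0638 against A366 and 6 to 1724 for the interaction; a lone library was assumed to vary like the other groups. The lowest counts against TSA were those without TSA replicate 1, and the highest interaction count was without replicate 2 of the latrunculin A control. When the model held no libraries but those compared, the counts were 1319 for RK-701, 987 for A366, 52, 510 and 471 for the pairs A366 and RK-701, UNC0638 and RK-701, and UNC0638 and A366, and 137 for the interaction. DESeq2 gave 1210, 846, 17, 351, 317 and 775 in the same order. Without a filter on low counts, A366 had 807, the pairs 38, 417 and 390, and the interaction 827. The cause was not tested. The ratio of distances between and within compounds, 1.15, ranged from 1.13 to 1.18 without 1 library and was 1.06 with a pseudocount of 0.1.

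With the replicate number as a block, the pairs had 1, 108 and 106 calls, the pooled comparison 999 and the interaction 136; the numbers do not pair the libraries. Of 1837 values of named genes under alternatives, 1546 kept their direction and side of the threshold, 280 lost the call, 10 gained it, and 1 changed sign: Ehmt1, at 0.0013 without TSA replicate 1 and -0.36 without TSA replicate 2. With 2 libraries a group, the median 95% interval of a difference between compounds reached 1.41 to 1.48 on the log2 scale to either side, so differences under 2-fold were mostly not detectable.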

Other observations

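Repeat families of the two-cell stage were summed over their annotated copies and not tested. MERVL-int, the internal part of an endogenous retrovirus that two-cell embryos transcribe, summed over 1461 copies to 5627 and 4469 CPM with TSA, 4111 and 4542 with RK-701, 5389 and 4538 with A366, and 6775 and 7883 with UNC0638, beside 8556 to 9235 in IVF embryos. Its terminal repeat MT2_Mm summed over 2366 copies to 3858 and 2686 CPM with TSA, 2012 and 2763 with RK-701, 2927 and 2534 with A366, and 4508 and 5584 with UNC0638, beside 4905 to 5988 in IVF embryos. In both, only the UNC0638 libraries lay above both TSA libraries.

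Zinc finger genes named Zfp, Zscan or Zkscan, a group formed after the values were seen, had 47 of 419 members called higher and 2 lower in the pooled comparison, 11.2% higher against 2.52% of all genes tested. Vomeronasal and olfactory receptor genes, the other group formed in this way, had 10 of 348 called higher (2.87%) and 4 lower (1.15%). In a fit that included the sex chromosomes, 29 of 1010 X-linked genes were called higher and 12 lower, near the share over all 26817 genes of that fit, of which 666 were higher and 576 lower.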
